A study of Gallus gallus with 8 samples.

Results

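The hedgehog co-receptors CDON, BOC, GAS1 and LRP2 were followed between 2 dissected tissues of the chick embryo. They were read by every probe set, other than Affymetrix controls, to which the platform annotation gives one of these 4 symbols, 18 of 38439. CDON had 7, BOC had 2 and LRP2 had 9. No probe set carried the symbol GAS1 or its Entrez gene ID in the annotation used, so GAS1 is not analysed here and the results concern 3 genes of 13009 with a symbol.

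Hedgehog proteins are secreted signals that pattern the neural tube from its ventral side. PTCH1 is their receptor and holds the transducer SMO inactive until ligand binds, after which GLI transcription factors switch on targets that include PTCH1 itself and the ligand-binding inhibitor HHIP. Co-receptors bind the ligand at the cell surface and act together with PTCH1. CDON and BOC are related membrane proteins with immunoglobulin and fibronectin type III repeats, GAS1 is held in the membrane by a lipid anchor, and LRP2 (megalin) is a very large endocytic receptor of the LDL receptor family. In mouse, loss of CDON or of LRP2 gives forebrain midline defects of the holoprosencephaly type.

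Cranial neural folds, the elevating borders from which crest cells and the dorsal neural tube form, were set against cranial neural plates, which the series text calls ventral. Both were cut from chick embryos of Hamburger and Hamilton stage 8, from eggs kept at 38 °C, with 4 arrays each, and no strain, genotype or agent is given for either. The series text counts 80 to 114 embryos with n = 4 and does not say how they were divided among samples, so p-values measure a spread between samples that may be technical. Labelled RNA made from 6 µg of total RNA was hybridised to Affymetrix chicken arrays, 1 array per sample, and the number of arrays limits the precision.

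Median intensities were 105.3 to 121.6 on 6 arrays, while those numbered 1 stood apart at 195.7 (neural fold) and 182.1 (neural plate). Results are therefore also given without these arrays where that matters. Beta-actin, a check of RNA integrity, gave a 3' over 5' ratio of 1.36 to 1.998 on neural fold arrays and 1.57 to 1.99 on neural plate arrays, and for GAPDH the ratios were 0.892 to 1.40 in neural fold and 0.851 to 1.22 in neural plate. The tissue labels were checked with marker lists: 8 of 9 neural fold and crest genes were higher in neural fold, and 4 of 4 tested ventral neural plate and floor plate genes were lower. Some markers of neighbouring tissues also differed. Of 8 tested non-neural ectoderm genes 2 were higher in neural fold, and of 6 notochord and prechordal plate genes 3 were lower. Of 5 tested endoderm genes 1 was lower, and of 6 neural genes 2 were lower. Of 7 head mesoderm genes 0 passed the threshold (3 lower and 1 higher at an unadjusted p under 0.05). Of 5 blood and endothelium genes 0 passed (1 lower, unadjusted).

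CDON was higher in neural fold by about 3-fold, while BOC and LRP2 gave no probe set past the threshold in either direction. Values below are log2(intensity + 16) after quantile normalization unless called intensities, and a change is the neural fold mean less the neural plate mean, given with its SE. Tests are limma's, with Benjamini-Hochberg adjustment over all 23063 tested probe sets and a threshold of 0.05. Of the 15 co-receptor probe sets bright enough to be tested, 2 were higher in neural fold, both of CDON, and 0 were lower. Of all tested probe sets, 1.28% were called in either direction and 0.694% higher in neural fold.

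The brightest CDON probe set (Gga.5225.1.S1_at) had deposited intensities of 2340.4, 1649.5, 2237.1 and 2079.4 on neural fold arrays 1 to 4, against 905.7, 582.4, 619.5 and 455.3 on neural plate arrays 1 to 4. The lowest neural fold array lay above the highest neural plate array. On the log2 scale it read 11.37, 10.66, 11.10 and 11.00 in neural fold, against 9.85, 9.26, 9.31 and 8.89 in neural plate (means 11.03 ± 0.29 and 9.33 ± 0.40, SD, n = 4 each). CDON by this probe set rose in neural fold by 1.71 ± 0.24, with a 95% interval of 1.15 to 2.26 (3.27-fold, limma adjusted p = 0.013). All arrays of both tissues lay above the background limit, which was set from controls that no chick transcript should light up.

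A CDON probe set named for another sequence cluster (GgaAffx.22600.1.S1_s_at) gave the same size of change. It read 10.19, 9.63, 9.90 and 9.94 on neural fold arrays 1 to 4, against 8.54, 7.88, 8.27 and 8.06 on neural plate arrays 1 to 4, and the tissues did not overlap. Its change was 1.73 ± 0.20 (3.31-fold, limma adjusted p = 0.0048). This call held in all 18 alternatives run on it, with adjusted p between 0.00082 and 0.027. The call of the brightest probe set was lost when neural fold array 3 (limma adjusted p = 0.056), neural fold array 4 (0.054), neural plate array 2 (0.053) or neural plate array 3 (0.055) was left out, with changes of 1.69, 1.72, 1.69 and 1.70.

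The other 3 tested CDON probe sets also lay higher on every neural fold array than on any neural plate array, but were not past the threshold. Gga.14597.1.S1_s_at differed by 1.15 ± 0.27 (limma adjusted p = 0.12), the smallest of the 5 tested. It passed with the replicate number as a block (limma adjusted p = 0.024). GgaAffx.22600.3.S1_s_at differed by 1.84 ± 0.53 (limma adjusted p = 0.24) and Gga.14597.1.S1_at by 1.90 ± 0.46 (limma adjusted p = 0.14). Their SEs were larger, and their neural plate arrays dim. Gga.14597.1.S1_at read 8.07, 7.84, 7.96 and 8.07 in neural fold, against 5.60, 4.89, 7.28 and 6.57 in neural plate, where 2 of 4 lay above the background limit. These were arrays 3 and 4, which had the lowest limits of the 8 arrays (6.31 and 5.82). Without neural plate array 3, this probe set passed the threshold at 2.30 (limma adjusted p = 0.049).

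In all, 5 of 5 tested CDON probe sets (5 of 7 with those not tested) had no overlap with neural fold higher, which was true of 3.12% of all tested probe sets. Of these 5, Gga.14597.1.S1_at passed the filter on mean level only through its neural fold arrays (mean 7.99, against 6.09 in neural plate). Its lack of overlap is therefore not separate support. Gga.14597.1.S1_at and Gga.14597.1.S1_s_at are named for the same source sequence, and the 4 probe sets whose names begin GgaAffx.22600 for the same cluster, so these are not independent measures of the gene. Names ending in _s_at mark probes that match several transcripts. The remaining 2 CDON probe sets fell under the filter on dim values and were not tested. GgaAffx.22600.4.S1_s_at read 5.32, 7.65, 7.50 and 7.33 in neural fold, against 5.05, 4.82, 6.37 and 5.18 in neural plate, with neural fold array 1 among the neural plate values. GgaAffx.22600.4.S1_at lay at or below the background limit on all 8 arrays, at 5.06 to 5.86 in neural fold and 5.19 to 5.31 in neural plate.

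**Figure D1:**
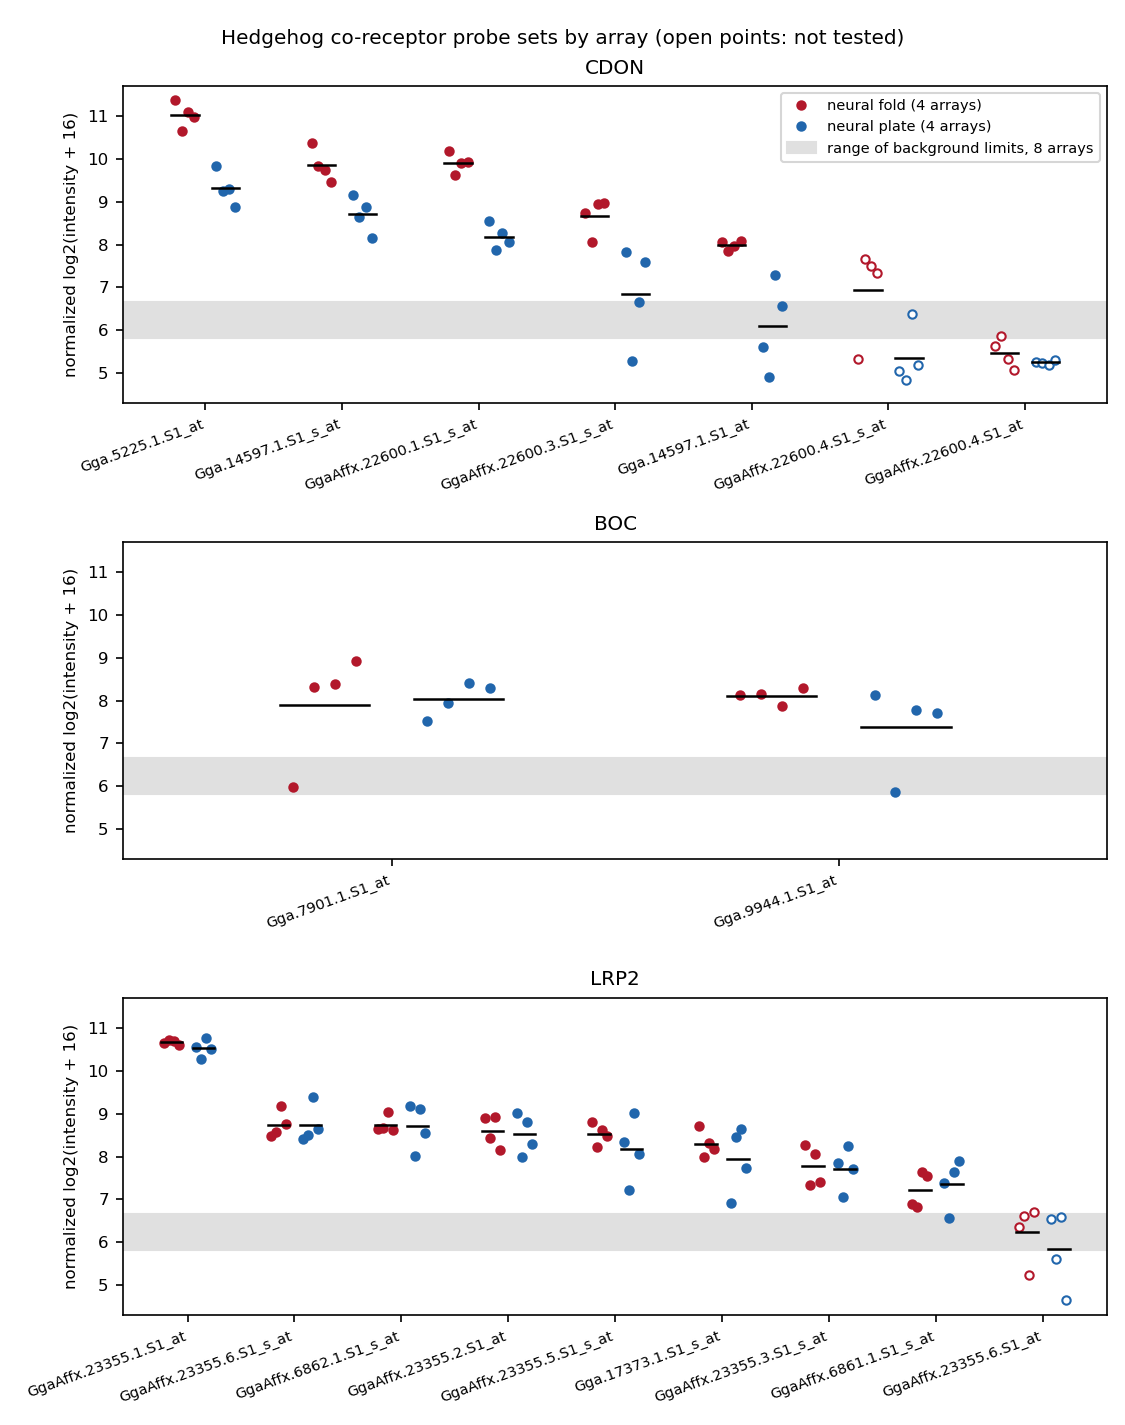
Normalized log2(intensity + 16) of the 18 probe sets of CDON, BOC and LRP2 on each array, neural fold (red) left of neural plate (blue), with the mean of 4 arrays as a black line and the range of background limits in grey. The 5 tested CDON probe sets separate the tissues, and those of BOC and LRP2 overlap.

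Arrays numbered 1 deviated together between the tissues (correlation 0.62), and those numbered 2 to 4 did so more weakly (0.19, 0.29 and 0.21). The change was therefore also read within each number. The brightest CDON probe set differed by 1.53, 1.40, 1.79 and 2.11 between neural fold and neural plate within numbers 1 to 4. GgaAffx.22600.1.S1_s_at differed by 1.65, 1.76, 1.63 and 1.88. Within number 1, whose arrays stood apart, both differences lay inside the range of the other numbers. Without both arrays numbered 1 the brightest probe set changed by 1.77 ± 0.18 (limma adjusted p = 0.0083).

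Mean marker levels of other tissues and of neural cells were compared between the samples by their ranges only, with no test. The ranges did not overlap except for head mesoderm, though the gaps for endoderm and for blood and endothelium were narrow. Single head mesoderm genes still went both ways at an unadjusted p under 0.05 (3 lower and 1 higher of 7). The mean level of 8 non-neural ectoderm genes was 9.003 to 9.41 on neural fold arrays and 7.65 to 8.32 on neural plate arrays, with all 8 above the background limit on some array of each tissue. For 6 notochord and prechordal plate genes it was 7.89 to 8.53 on neural fold arrays, where 5 lay above the limit on some array, and 10.13 to 10.60 on neural plate arrays, where all 6 did. For 8 head mesoderm genes it was 7.23 to 7.58 in neural fold and 7.44 to 8.21 in neural plate. For 7 endoderm genes it was 7.36 to 8.18 in neural fold and 8.28 to 8.39 in neural plate. For 6 neural genes it was 10.68 to 10.88 in neural fold and 11.44 to 11.83 in neural plate. For 7 blood and endothelium genes it was 6.05 to 6.99 in neural fold and 7.005 to 7.56 in neural plate. Their part in the CDON difference was not tested. In dissected pieces, fewer cells that express a gene and less RNA per cell cannot be told apart.

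BOC, the relative of CDON, showed no change past the threshold by either probe set (0 of 2, also at an unadjusted p under 0.05). Gga.7901.1.S1_at, the brighter, read 5.97, 8.31, 8.38 and 8.94 on neural fold arrays 1 to 4, against 7.53, 7.93, 8.42 and 8.29 on neural plate arrays 1 to 4. Neural fold array 1 lay below all the others and below its background limit, and the remaining values overlapped. The change was -0.15 ± 0.59, with a 95% interval of -1.50 to 1.21 (limma adjusted p = 1.00). Without neural fold array 1 it turned to 0.50 (limma adjusted p = 0.63).

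The other BOC probe set, Gga.9944.1.S1_at, read 8.14, 8.16, 7.89 and 8.29 in neural fold, against 8.12, 5.87, 7.79 and 7.70 in neural plate. Here neural plate array 2 was the low one. Its change was 0.75 ± 0.45, with a 95% interval of -0.29 to 1.78 (limma adjusted p = 0.85). Each of the 2 BOC probe sets thus had a single low array, in a different tissue, and the intervals of both take in increases of more than 1 log2 unit in neural fold.

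LRP2 was measured by more probe sets than the others, and its brightest gave the narrowest 95% interval of the 15 tested. This probe set, GgaAffx.23355.1.S1_at, had deposited intensities of 1469.7, 1727.7, 1700.1 and 1569.6 on neural fold arrays 1 to 4, against 1410.8, 1237.1, 1780.6 and 1482.7 on neural plate arrays 1 to 4. The tissues overlapped. On the log2 scale the neural fold mean was 10.67 ± 0.05 and the neural plate mean 10.54 ± 0.20 (SD, n = 4 each). The change was 0.13 ± 0.15, with a 95% interval of -0.21 to 0.48 (limma adjusted p = 1.00), which leaves out a change of the size seen for CDON.

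The 8 tested LRP2 probe sets differed by -0.14 to 0.37 with a median of 0.06, beside a median of -0.00056 over all tested probe sets. None passed the threshold, and 0 of 8 had an unadjusted p under 0.05, against 8.26% of all tested probe sets. With only 8 probe sets, a count of 0 lies near that share and does not set LRP2 apart. The names of 6 of 9 LRP2 probe sets begin GgaAffx.23355, for the same cluster, so these are not independent measures of the gene. The widest upper limit was that of Gga.17373.1.S1_s_at, at 1.23. It read 8.72, 7.99, 8.32 and 8.18 in neural fold, against 6.92, 8.47, 8.65 and 7.73 in neural plate. The ninth, GgaAffx.23355.6.S1_at, was under the filter, with 6.36, 6.61, 5.24 and 6.70 in neural fold and 6.54, 5.61, 6.60 and 4.63 in neural plate. Neural plate array 2 was the lowest of its tissue for 6 of 9 LRP2 probe sets and neural plate array 3 the highest for 6. Over all co-receptor probe sets, neural plate array 2 was the lowest of its tissue for 11 of 18 and the highest for 0.

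**Figure D2:**
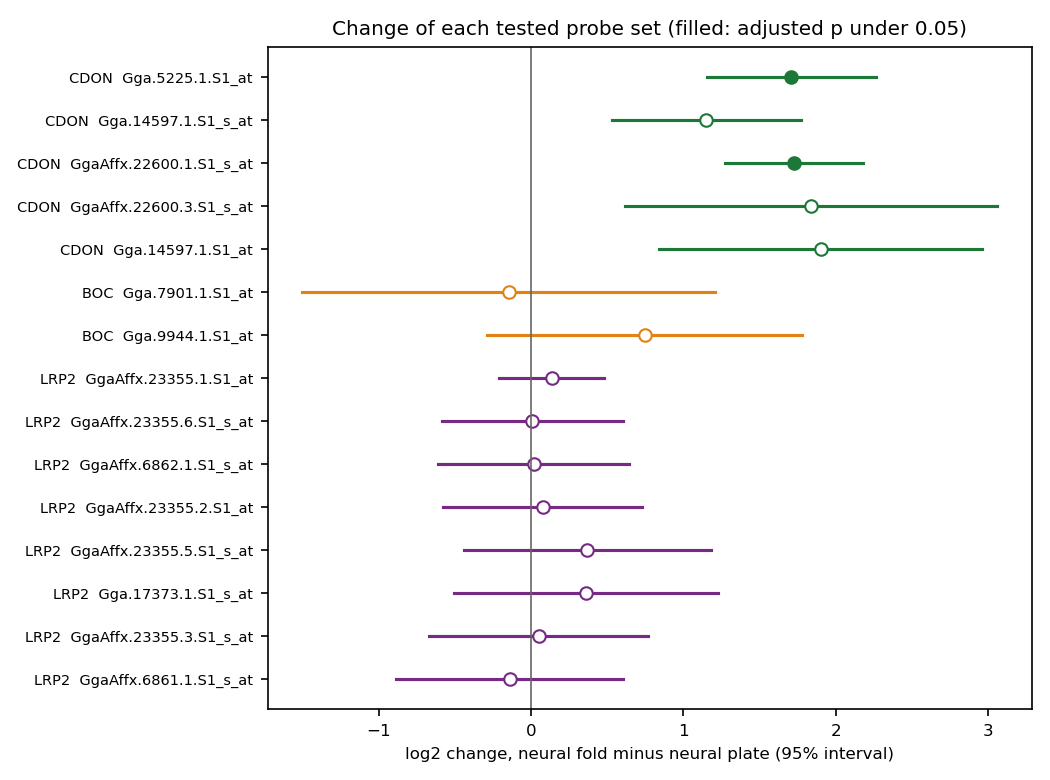
Log2 change (neural fold minus neural plate) of the 15 tested probe sets, with the 95% interval of the limma fit as a line. Filled points had an adjusted p under 0.05: the 2 at 1.71 and 1.73, both of CDON. The intervals of BOC and LRP2 all cross 0.

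CDON was set against its fellow co-receptors within each array, as the difference between brightest probe sets. These differences carry the probes' own brightness, so only their shift between tissues has a meaning. CDON minus LRP2 was 0.72, -0.06, 0.40 and 0.39 on neural fold arrays 1 to 4, against -0.72, -1.03, -1.46 and -1.62 on neural plate arrays 1 to 4, with no overlap. The shift was 1.57 (exact two-sided permutation p = 0.0286, the smallest this design can give, and 0.0571 adjusted over the 2 differences tested). CDON minus BOC was 5.40, 2.35, 2.72 and 2.06 in neural fold, against 2.32, 1.33, 0.89 and 0.59 in neural plate. Neural fold array 4 lay below neural plate array 1, and the shift of 1.85 had an exact two-sided permutation p of 0.0571 (0.0571 adjusted). Its size leans on neural fold array 1, where the BOC probe set read 5.97, below the background limit. Without that array the shift was 1.10, the smallest of those with 1 array left out. Neither shift was past the threshold after adjustment. Both passed, at an adjusted exact permutation p of 0.0286, with the intensities as deposited and with the mean of each gene's probe sets. Median centring shifts each array by 1 constant, so within an array it gives the deposited result again. This setting of CDON against the others was chosen because an earlier analysis of these arrays had called CDON, so the choice was not independent.

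**Figure D3:**
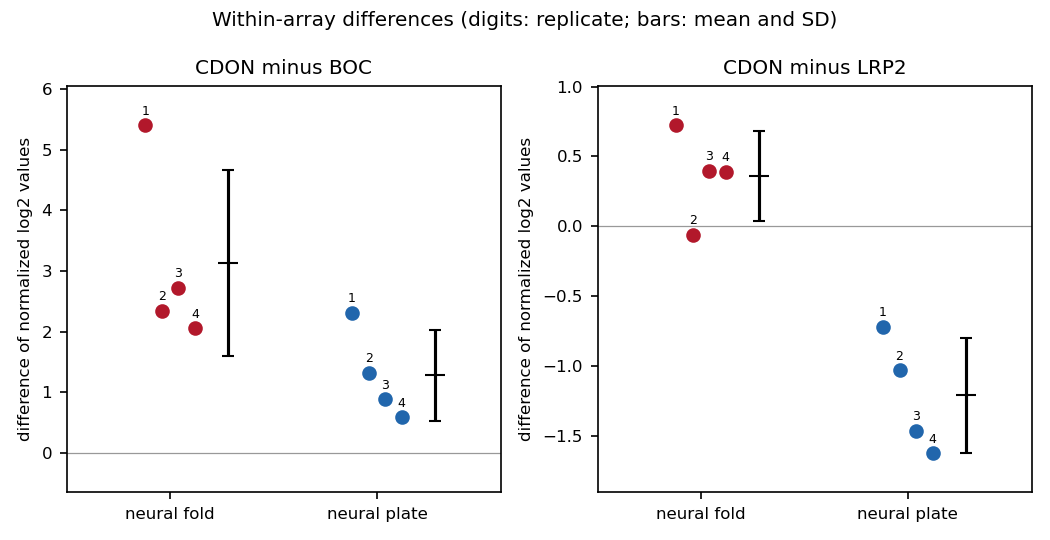
Difference between the brightest probe sets of CDON and BOC (left) and of CDON and LRP2 (right) on each array, in normalized log2 units, with the replicate number beside each point and the mean and SD (n = 4) as a bar. The values for CDON minus LRP2 lie at -0.06 or above in neural fold and at -0.72 or below in neural plate, and those for CDON minus BOC overlap.

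The genes whose profile over the 8 arrays was most like that of CDON were found by the root mean square difference between profiles, each set to a mean of 0. Within 0.25 of the brightest CDON probe set, whose own profile had an SD of 0.91, lay 5 of 10278 other genes. They were CYP26A1, which breaks down retinoic acid (0.21), BTG2, an antiproliferative gene (0.21), DMBX1, a homeobox gene of the midbrain (0.22), TMEM132C (0.23) and NRP2, a semaphorin receptor (0.23). The change in neural fold was 1.68 ± 0.31 for CYP26A1, 1.79 ± 0.23 for BTG2, 1.35 ± 0.26 for DMBX1, 1.85 ± 0.26 for TMEM132C and 2.02 ± 0.23 for NRP2. That of DMBX1 was not past the threshold (limma adjusted p = 0.054). These changes follow from the choice of genes by likeness to CDON and are given as a description. The BOC profile had an SD of 0.84, with neural fold array 1 by far the lowest at 5.97, below its background limit. For BOC the nearest were TGDS (0.22), TFPI (0.24), NHLRC1 (0.25), HSF2BP (0.26) and CENPU (0.27), with 3 genes within 0.25. For LRP2, whose profile had an SD of 0.14, the nearest were ATAD2, MELK, SLC25A43, ATP5PB and HNRNPH3 (0.07 to 0.09), and 2545 genes lay within 0.25.

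The rest of the hedgehog pathway was described from lists of its roles, with the brightest probe set of each gene. SHH, the ligand, read 7.64, 7.10, 6.55 and 7.10 on neural fold arrays 1 to 4, against 9.40, 9.73, 8.88 and 9.59 on neural plate arrays 1 to 4. The receptor PTCH1 read 7.79, 8.75, 8.76 and 8.17 in neural fold, against 10.66, 10.79, 10.82 and 11.10 in neural plate. In both genes the tissues did not overlap, and neural fold was the lower, opposite to CDON. SHH lay above the background limit on 3 of 4 neural fold arrays. SHH fell by 2.31 ± 0.27 (limma adjusted p = 0.0055) and PTCH1 fell by 2.48 ± 0.25 (limma adjusted p = 0.0023). HHIP binds the ligand and is a target of the pathway. Its brightest probe set lay at or below the background limit on all 4 neural fold arrays. By this probe set HHIP was at least 3.01-fold lower there (limma adjusted p = 0.014, and 0.060 with the replicate number as a block). It also lost its call without neural plate array 2 (0.054), 3 (0.058) or 4 (0.061). The other tested HHIP probe set, under the limit on the same 4 arrays, changed by -1.65 ± 0.41 (limma adjusted p = 0.15). The other tested PTCH1 probe set changed by -2.28 ± 0.48 (limma adjusted p = 0.079). Neither was past the threshold. With the mean of each gene's probe sets, HHIP (limma adjusted p = 0.0087) and PTCH1 (0.0017) passed.

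Of 38 tested pathway genes, 0 were higher in neural fold (2 at an unadjusted p under 0.05), 6 were lower (10 unadjusted) and 32 were not past the threshold, with a median change of -0.21. Over all 10279 tested genes, 1.75% were called (0.827% lower and 0.924% higher), with a median change of -0.0052. The share at an unadjusted p under 0.05 was taken over all tested probe sets only, at 8.26% in either direction. The 6 were SHH, PTCH1, HHIP and the ventral identity genes FOXA2 (-3.42 ± 0.31), NKX6-1 (-5.13 ± 0.31) and NKX6-2 (-2.27 ± 0.21). Of these, SHH, FOXA2, NKX6-1 and NKX6-2 were also the 4 tested ventral markers used to check the tissue labels. Their calls therefore repeat that check. Of 6 notochord and prechordal plate markers, 3 were also lower in neural fold: TBXT (-3.72 ± 0.16), CHRD (-4.45 ± 0.33) and GSC (-3.74 ± 0.30). The part of such tissue in the differences of the pathway genes was not tested. FOXA2 lay above the background limit on 3 of 4 neural fold arrays and NKX6-1 on 2 of 4. CDON was thus the only co-receptor or pathway gene called higher in neural fold by its brightest probe set in the analysis reported. OLIG2, a gene of motor neuron progenitors, differed by -1.21 ± 0.31 (limma adjusted p = 0.16, and 0.049 with the replicate number as a block). It also passed without both arrays numbered 1 (-1.17, limma adjusted p = 0.048) and with a term for them (0.011). SMO, the transducer held by PTCH1, differed by -0.26 ± 0.42. GLI2, mainly an activator, differed by -0.41 ± 0.24, and GLI3, mainly a repressor in the neural tube, by 0.93 ± 0.31 (limma adjusted p = 0.37). GLI3 read 12.04, 12.82, 12.61 and 12.75 in neural fold, against 10.76, 12.05, 11.83 and 11.86 in neural plate, where array 1 was the lowest in each tissue. GLI3 passed the threshold, higher in neural fold, when both arrays numbered 1 were left out (0.81 ± 0.12, limma adjusted p = 0.029) and with a term for them (0.010).

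IHH, another ligand, lay at or below the background limit on all 8 arrays and GLI1, a target and activator, on 7 of 8, and neither passed the filter. The filter on mean level also removed NKX2-1, a listed ventral identity gene. NKX2-1 read 4.31 to 4.79 in neural fold, where no array lay above the limit, against 6.62 to 8.75 in neural plate, where 3 did. With no filter its change was -3.59 (limma adjusted p = 0.016). Among 8 genes of ligand release and handling, 0 passed the threshold (3 at an unadjusted p under 0.05), and among 18 transducers and negative regulators 0 passed (2 unadjusted).

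**Figure D4:**
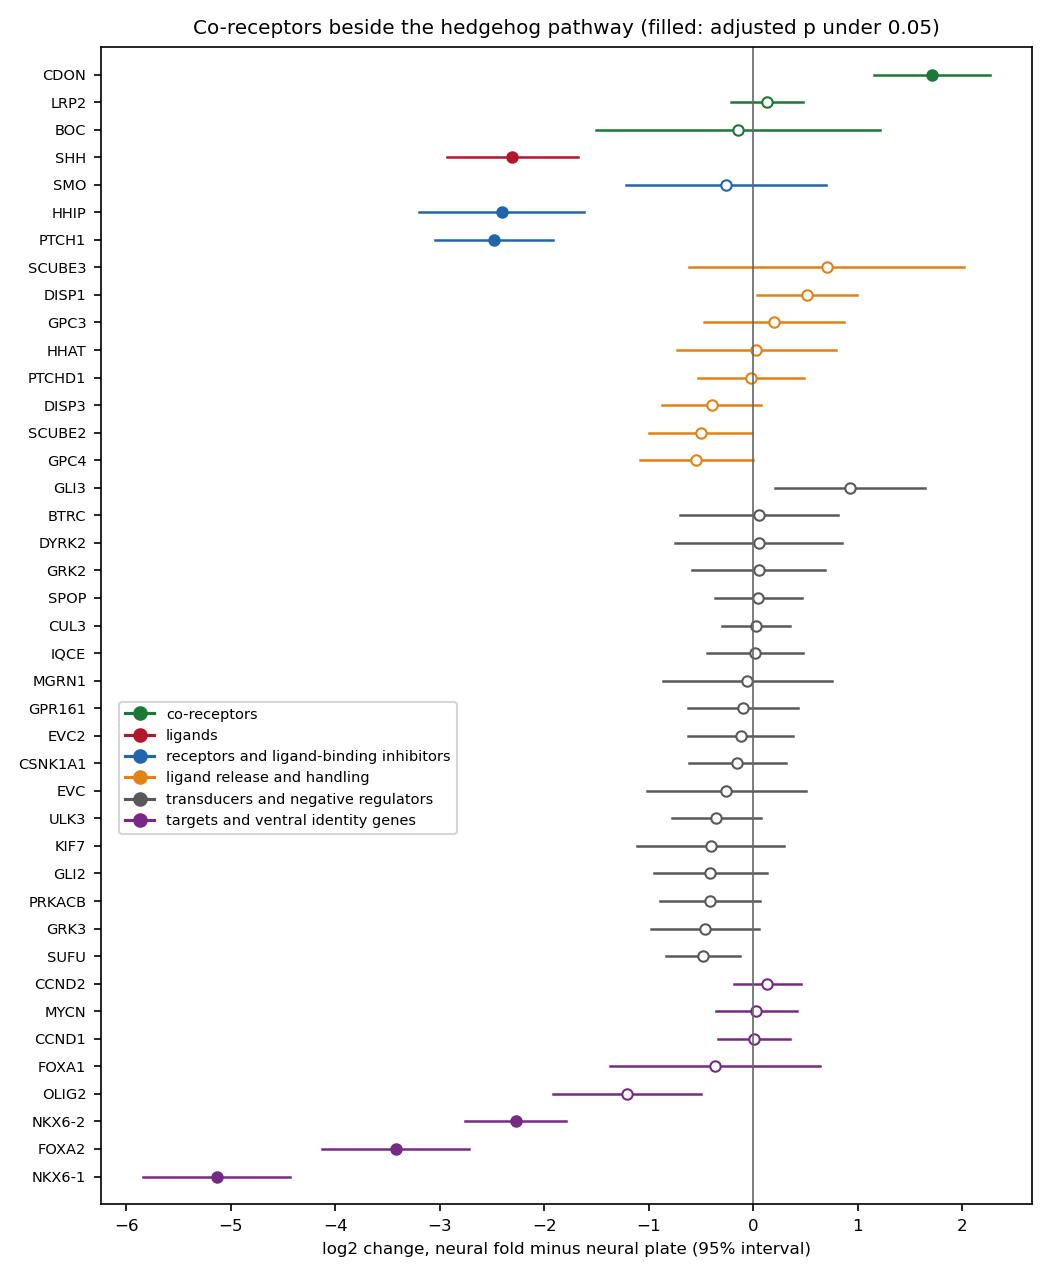
Log2 change (neural fold minus neural plate) of CDON, BOC and LRP2 above 38 tested genes of the hedgehog pathway, by role, with 95% intervals of the limma fit. Filled points had an adjusted p under 0.05: CDON to the right of 0, and SHH, PTCH1, HHIP, NKX6-2, FOXA2 and NKX6-1 to its left.

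Of 35 tested partners and relatives of the co-receptors, 1 was higher in neural fold, 1 lower and 33 not past the threshold, beside 1.75% called among all tested genes. At an unadjusted p under 0.05, 5 were higher and 3 lower, beside 8.26% of all tested probe sets in either direction. The median change was -0.0066. LRP4, a smaller relative of LRP2 in the LDL receptor family, read 10.37, 9.85, 10.09 and 10.28 in neural fold, against 8.93, 8.90, 8.99 and 8.66 in neural plate, with no overlap. It rose by 1.28 ± 0.17 (2.43-fold, limma adjusted p = 0.0093), but not past the threshold with median centring (0.081) or with the mean of its probe sets (0.13). CDH2, the neural cadherin, changed by -0.86 ± 0.14 (limma adjusted p = 0.023), a call lost when any of neural fold arrays 2, 3 and 4 or neural plate arrays 2, 3 and 4 was left out (0.069 to 0.097), with the intensities as deposited (0.067), with median centring (0.79), with no filter (0.10) and with the mean of its probe sets (0.17).

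NEO1, a netrin receptor of the same superfamily as CDON and BOC, differed by 0.08 ± 0.24. CUBN, which takes up ligands together with LRP2, differed by -0.45 ± 0.45, and LRPAP1, a chaperone of the family, by -0.60 ± 0.28 (limma adjusted p = 0.66). ROBO2, a guidance receptor of the immunoglobulin superfamily, differed by 1.11 ± 0.26 (limma adjusted p = 0.12). The netrin receptor UNC5B differed by 0.96 ± 0.21 (limma adjusted p = 0.097). Both were higher in neural fold with no overlap. Both passed with the replicate number as a block (SE 0.14 and 0.12, limma adjusted p = 0.039 each). ROBO2 also passed without neural fold array 1 (0.013). UNC5B also passed with a 60th percentile filter (0.049) and with the variance trend (0.038). Using the mean of each gene's probe sets, both passed (0.0087 and 0.0075). Dropping the number 1 pair (0.0059 and 0.024) or giving that pair its own model term (0.0048 and 0.0046) did the same. Of the relatives of GAS1, the GDNF-family receptor GFRA1 differed by -0.63 ± 0.63, with 2 neural fold and 3 neural plate arrays above the background limit. Its relative GFRA3 differed by 0.38 ± 0.31 and RET, which GFRA proteins signal through, by 0.31 ± 0.24. None of the 3 tested was past the threshold or had an unadjusted p under 0.05.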

How the data were processed

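The deposited table gives 1 linear intensity per probe set and array, made by the authors with GCOS (Affymetrix software) per the submitters' processing notes; its version, background treatment and detection calls are not given in the sources used here. The mean after trimming 2% at each end is 500.1 on every array. A constant of 16 was added before log2, which shrinks the changes of dim genes. The 96 control probe sets were left out, arrays were quantile normalized because their medians differed by up to 0.80 on the log2 scale, and probe sets at or above the 40th percentile of mean level were tested (23063 of 38439). The linear model was fitted with limma 3.58.1 (lmFit, eBayes) under R 4.3.3. On simulated data over 23063 probe sets, 31% of changes of 1 and 68% of changes of 2 (log2) were called. The simulated noise was drawn independently for each probe set and array, without the deviation shared by the arrays numbered 1. Rates in the real data may therefore differ.

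The background limit of an array is the 95th percentile of 59 control probe sets, carried onto the normalized scale. It was 6.50 to 6.64 on neural fold arrays, and 6.64, 6.65, 6.31 and 5.82 on neural plate arrays 1 to 4. Counts of arrays above the limit are therefore not equally strict in both tissues. A bound is the brighter tissue's mean against, per array, the higher of limit and value. Symbols come from the platform annotation, matched through Entrez IDs to RefSeq (GRCg7b): 27168 probe sets had 1 symbol, 177 several and 11094 none, and 26853 matched. The brightest probe set stood for a gene. No coordinates or sequences are given.

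Same-numbered arrays deviated together for number 1 (correlation 0.62) and more weakly for numbers 2, 3 and 4 (0.19, 0.29 and 0.21). The arrays numbered 1 matched each other best, as did those numbered 3. Across numbers, neural fold array 2 and neural plate array 4 also matched each other best. The number was fitted as a block as an alternative. The members, lists and tests were chosen with earlier results of these data known. The named genes were all members, the core pathway genes SHH, IHH, PTCH1, HHIP, SMO and GLI1 to GLI3, list genes past the threshold, and the 5 genes most like each member; others named were picked for their role or for a call under an alternative after values were seen. Alternatives changed the scaling, pseudocount, filter, block, variance trend, probe set rule and arrays used.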

Additional observations from a re-analysis of the deposited data

Results flagged for a closer look

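Among 62 groups of 4 arrays, 1 array lay far from the others of its tissue in 5, by the gap to its nearest neighbour as a share of the group's range (above Dixon's 95% critical value). Chance gives about 1 in 20. CDON by its dim probe set GgaAffx.22600.4.S1_s_at was low on neural fold array 1, at 5.32 with the next at 7.33 (share 0.861). LRP2 by GgaAffx.6862.1.S1_s_at was high on neural fold array 3, at 9.03 with the next at 8.67 (0.878). SMO was high on neural plate array 1, at 12.07 with the next at 10.68 (0.893). HHIP was low on neural plate array 1, at 7.72 with the next at 8.27 (0.877). GLI3 was low there too, at 10.76 with the next at 11.83 (0.832). These 5 lay on 3 arrays, with 3 of them on neural plate array 1.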

How the results depend on the processing

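The change of CDON kept its direction in all 19 alternatives (1.56 to 1.88, which is also the range when leaving out 1 array) and lost its call in 4, each without 1 array (limma adjusted p up to 0.056). With the replicate number as a block it was 1.71 (limma adjusted p = 0.018). The block brought co-receptor probe sets past the threshold to 3 and changed no call of CDON, BOC or LRP2 by the brightest probe set; elsewhere HHIP lost its call (0.060) and OLIG2 (0.049), ROBO2 (0.039) and UNC5B (0.039) gained one. Leaving out 1 array gave 1 to 2 co-receptor probe sets past the threshold, with 1 without neural fold array 3 or 4 or neural plate array 2. BOC and LRP2 passed in 0 of 19 alternatives each. BOC changed sign in 3, with the highest value of 0.50. CDON minus BOC was 1.83 with the intensities as deposited and with median centring, and 1.37 with the mean of probe sets. Without 1 array it was 1.10 (neural fold array 1 left out) to 2.21. CDON minus LRP2 was 1.56 in those 3 settings and 1.44 to 1.74 without 1 array; without 1 array the exact permutation p cannot go below 0.0571, and over pairs of the replicate block not below 0.125. Pathway genes past the threshold numbered 10 with a term for the arrays numbered 1, an alternative chosen after seeing the data. Of these, 2 were higher in neural fold, GLI3 (0.93, limma adjusted p = 0.010) and DISP1 (0.51, 0.036). The 8 lower included GPC4 (-0.54, limma adjusted p = 0.032). Pathway genes past the threshold numbered 8 without both arrays numbered 1, 7 with no filter or a pseudocount of 64, and 5 to 6 without 1 array. Partners and relatives numbered 1 with the intensities as deposited and with no filter, 0 with median centring (6 at an unadjusted p under 0.05), 4 with the block, 4 without both arrays numbered 1, 6 with a term for them, and 1 to 3 without 1 array. Over all probe sets, 295 were called in the analysis reported, 151 with median centring, 540 without both arrays numbered 1, 863 with a term for them, and 139 to 301 without 1 array. Signal near the background limit leaves GLI1, IHH and the CDON probe set GgaAffx.22600.4.S1_at unmeasured. The dim probe sets GgaAffx.22600.4.S1_s_at (CDON) and GgaAffx.23355.6.S1_at (LRP2) lay above the limit on some arrays but were under the filter and not tested. A planned difference of CDON and GAS1 could not be made, and the filter, the variance trend and the array term do not apply to differences within arrays.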
